A study of Homo sapiens with 9 samples.

Results

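The genes described here are 7 interferon regulatory factors, IRF1, IRF2, IRF3, IRF5, IRF7, IRF8 and IRF9, together with IRF2BP2, which encodes a corepressor that binds IRF2. They were taken by symbol from the table of 59050 genes, and all 8 were found and passed the expression filter, under which 13463 genes were tested. IRF4 was not among the members and is given only where a comparison needs it. The cells were MEC1, an established B cell line derived from a patient with Chronic Lymphocytic Leukemia (CLL), so that every value comes from a single line. They were grown in suspension (2D, no time given) or printed in a hydrogel scaffold and kept in culture for 7 days (3D_7d) or 14 days (3D_14d), with 3 samples in each of the 3 groups. The labels name no treatment besides the culture, and the letters PGK in the sample titles are not explained there.

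Interferon regulatory factors share an N-terminal DNA-binding domain that recognises GAAA repeats in the promoters of interferon genes and of interferon-stimulated genes. IRF3, IRF5 and IRF7 lie downstream of receptors for foreign nucleic acids and are activated by phosphorylation, which messenger RNA levels do not show. IRF9 is the DNA-binding subunit of ISGF3, the complex that acts after type I interferon binds its receptor and that drives IRF7 among many other genes. IRF1 activates antigen presentation genes and is antagonised on shared sites by IRF2, to which IRF2BP2 binds as a corepressor. IRF8, with IRF4, works with the ETS factors PU.1 and SPIB in B cells.

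All 9 libraries were deep, with 54662799 to 85968686 counts assigned to genes. Of the members, IRF9 had the fewest counts, 222 to 718 per sample, which put its counting error at up to 6.71%, while that of the other members was at most 2.38%. All 8 B cell markers were tested, and their summed level was 13100 to 15300 CPM (counts scaled to the library total) in 2D, 15000 to 17100 CPM at day 7 and 21700 to 23400 CPM at day 14. MS4A1 rose (log2 fold change 0.86) and CD22 fell (-1.12) at day 7, and at day 14 CD74, CD79A and CD79B were higher than in 2D (0.83, 1.37 and 1.13) and CD22 lower (-0.71). Of 4 CLL surface genes, CD5 and ROR1 were close to 0 in all groups, at most 0.669 and 0.443 CPM. FCER2, which encodes CD23, was at 108 to 197 CPM and was higher at day 14 (0.67), and CD200 was at 15.1 to 42.2 CPM and was lower at day 7 (-0.67). None of 9 monocyte and macrophage markers passed the filter, with a summed level of 0.399 to 1.24 CPM. Among 10 T and NK cell markers TRAC and KLRD1 were tested, and the sum of 312 to 724 CPM was almost all TRAC, whereas CD3D and CD3G did not exceed 0.038 and 0.054 CPM. TRAC was higher than in 2D at day 7 and day 14 (log2 fold change 0.51 and 0.97), and so was KLRD1 (2.04 and 3.07). Of 8 stromal markers, with a sum of 23.6 to 27.3 CPM in 2D, 38.2 to 55.3 CPM at day 7 and 54.8 to 80.2 CPM at day 14, PECAM1 was higher at both times (1.61 and 2.22), and PDGFRB and COL1A1 fell at day 7 (-3 and -1.21). Ribosomal protein genes took 3.76 to 4.42% of counts in 2D, 1.53 to 1.67% at day 7 and 1.73 to 2.99% at day 14. The part of these differences and of the marker changes in the results was not tested. In such bulk libraries a lower value from fewer cells of a type and from less RNA per cell cannot be told apart. RNA was prepared with TRIzol, then DNase, then a column kit from the scaffolds, but with the column kit, which includes a DNase wash, as the only extraction from 2D cells, so extraction and culture cannot be told apart in comparisons with 2D, while both time points were prepared alike. Day 14 replicate 1 differed most from its group (chi-square per gene of 253 to 305 in its pairs, against 155 in the other pair). It had the lowest day 14 values of IRF2, IRF5, IRF8 and IRF9 and the highest of IRF1, IRF3, IRF7 and IRF2BP2.

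Promoter sequence was looked up for the members because IRF1, IRF7 and IRF9 are textbook interferon targets. The RefSeq table (GRCh38.p14) held IRF1, IRF5, IRF8, IRF9 and IRF2BP2, and IRF2, IRF3 and IRF7 were not matched. The windows follow RefSeq starts: all those of IRF5 and both of IRF8 (chr16:85902580-85902829 and chr16:85902765-85903014) begin inside the gene as the count table bounds it, and the bases before the IRF8 start in that table were not searched. The IRF9 window begins before that gene but ends inside it. The 250 bases upstream of each listed start site were searched on both strands for the core of the interferon-stimulated response element (ISRE, GAAA and GAAA separated by any 2 bases), the STAT site GAS (TTCNNNGAA, which is its own reverse complement) and TATAAA. GAS was found in IRF1 and IRF9, and in 6.57% of 35116 promoters of the same length. TATAAA was found in IRF5 and in 10.7% of promoters. The ISRE core, present in 3.02% of promoters, was in none of the windows searched for these 5 genes. The IRF1 promoter, printed because IRF1 rose at day 14 and carries the STAT site, lies at chr5:132490774-132491023 on the minus strand. Capitals mark the GAS letters, which begin 124 bases upstream of the start.
IRF1 promoter: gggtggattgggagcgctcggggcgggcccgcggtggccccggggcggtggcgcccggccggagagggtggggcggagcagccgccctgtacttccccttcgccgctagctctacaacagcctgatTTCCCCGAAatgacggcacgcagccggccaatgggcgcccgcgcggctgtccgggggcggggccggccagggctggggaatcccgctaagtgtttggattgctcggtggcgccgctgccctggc

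To compare both sites, 10 bases on each side are printed, IRF1 at chr5:132490879-132490907 on the minus strand and IRF9 at chr14:24161192-24161220 on the plus strand, where GAS begins 63 bases upstream of the RefSeq start. The IRF9 site lies inside the gene as the count table bounds it, from 24161053.
IRF1 site: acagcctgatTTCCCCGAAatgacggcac
IRF9 site: accacgtgatTTCTGGGAAaaggccctcc
A match is a run of letters and was not tested as a binding site.

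The called members differed in their time course. IRF5 rose at day 7 and fell back by day 14, IRF7 rose at day 14 alone, IRF1 was higher at day 14, and IRF2BP2 rose between day 7 and day 14. A gene was called at an adjusted p of at most 0.05 in edgeR's quasi-likelihood test, adjusted over all genes tested. At day 7 against 2D, 1 of 8 members was higher and 0 were lower, where 22.2% of all genes tested were higher and 21.2% lower. At an unadjusted p under 0.05, 1 member, IRF2BP2, was lower, and DESeq2 called 0 lower. At day 14 against 2D, 3 members were higher and 0 lower, against 19.0% and 17.2% of all genes. Without 3D_14d replicate 1, 6 members were higher, with IRF2, IRF5 and IRF8 added. Over all genes, that fit called 2862 higher and 2468 lower, against 2557 and 2318 with all samples. With all samples, 0 members were lower at day 14 at an unadjusted p under 0.05, and DESeq2 called 0 lower. From day 7 to day 14, 2 members rose and 1 fell, against 14.5% and 13.6%. The median log2 fold change of the members was 0.13, 0.29 and 0.21 in the 3 comparisons, and that of all genes tested was 0, 0.02 and 0. Groups did not overlap for 6, 3 and 4 of the members, and for 64.6%, 49.7% and 39.3% of all genes tested. Nothing states that the 3 samples of a group came from separate cultures, so p-values measure the spread between these samples only.

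**Figure D1:**
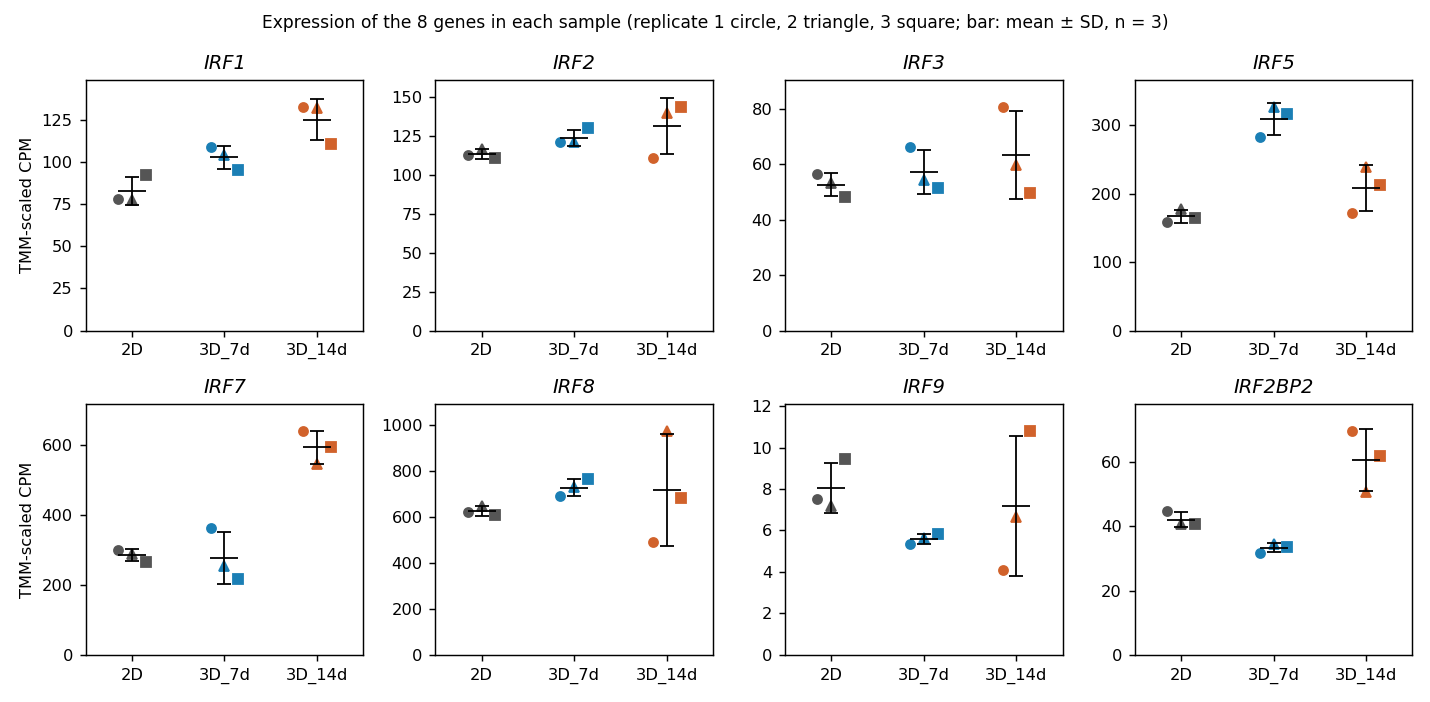
Level of each of the 8 genes (TMM-scaled CPM, linear axis from 0) in the 2D, 3D_7d and 3D_14d samples, 1 symbol per sample with mean and SD. IRF7 at day 14 (545 to 639 CPM) and IRF5 at day 7 (282 to 327 CPM) lie above every sample of the other groups, while IRF8 and IRF9 spread widely at day 14.

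**Figure D2:**
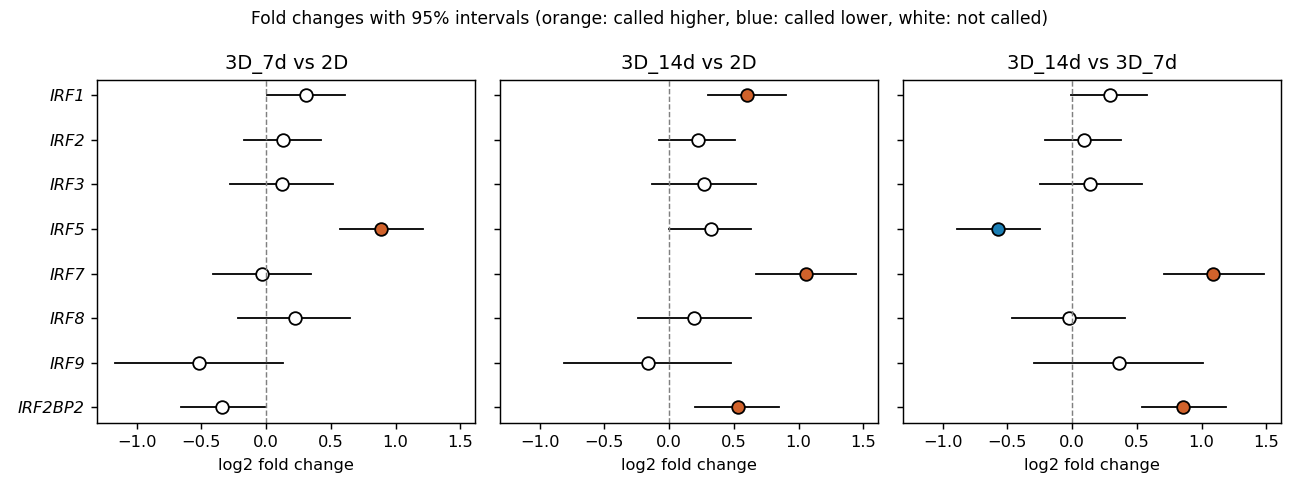
Log2 fold change and 95% interval of each gene in the 3 comparisons, with filled points for called genes. IRF7 is near 0 at day 7 (-0.03) and at 1.06 at day 14, whereas IRF5 is at 0.89 at day 7 and 0.32 at day 14.

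IRF7, the factor that amplifies type I interferon production, showed the largest fold changes of the 8 members in both comparisons of day 14, and the smallest at day 7 against 2D. The gene lies at chr11:612555-615970 on the minus strand (GRCh38), and none of its exons overlap another gene's. Its level was 300, 288 and 265 CPM in the 2D samples (replicates 1, 2 and 3), 361, 254 and 218 CPM at day 7, and 639, 545 and 592 CPM at day 14. All day 14 samples were above all others, and the day 7 samples overlapped those in 2D, replicate 1 being the highest of the 6. The mean was 284 ± 17.7 CPM in 2D, 278 ± 74.3 CPM on day 7 and 592 ± 46.9 CPM at day 14 (SD, n = 3 each). IRF7 was 2.08-fold higher at day 14 than in 2D (log2 fold change 1.06, SE 0.178, adjusted p = 0.000712). It was 2.13-fold higher at day 14 than at day 7 (1.09, SE 0.178, adjusted p = 0.00118). At day 7 against 2D the log2 fold change was -0.03, with a 95% interval of -0.41 to 0.35 (adjusted p = 0.899). Both calls of IRF7 held in all 16 alternative settings, with log2 fold changes of 0.86 to 1.11 and 0.97 to 1.33. Of 5 markers of plasmacytoid dendritic cells, which carry much IRF7, the summed level was 161 to 174 CPM in 2D, 165 to 197 CPM at day 7 and 193 to 266 CPM at day 14. Almost all of it was TCF4, which B cells also express, and without TCF4 the sum was 3.06 to 6.87 CPM in 2D and at day 7 and 8.87 to 15.3 CPM at day 14. LILRA4 rose at day 14 (log2 fold change 1.29, adjusted p = 0.00387), and the defining marker CLEC4C was at 0 to 0.247 CPM in the 9 samples.

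IRF3, which is present in resting cells and starts the interferon response that IRF7 amplifies, was level by comparison. The gene lies at chr19:49659570-49665875 on the minus strand. It was measured at 56.5, 53.2 and 48.2 CPM in 2D, 66.2, 54.4 and 51.3 CPM at day 7 and 80.8, 59.7 and 49.6 CPM at day 14. The 3 groups overlapped. Its log2 fold change was 0.12 (95% interval -0.28 to 0.52) at day 7 and 0.27 (adjusted p = 0.275) at day 14. Exons of BCL2L12 on the other strand cover 20.1% of its exonic bases, and the strand setting of the counting was not given in the sources used here. Per kilobase of exon, the ratio of IRF7 to IRF3 was 6.13 ± 0.11 in 2D, 5.44 ± 0.69 on day 7 and 11 ± 2.37 on day 14 (SD, n = 3). The ratios of the day 14 samples lay above all others, with an exact two-sided permutation p of 0.1 against each other group, which is the smallest that 3 against 3 samples allow.

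IRF5, a factor downstream of TLR7 that drives inflammatory cytokines and is active in B cells, had a time course different from that of IRF7, with its highest level at day 7. The gene lies at chr7:128937612-128950038 on the plus strand with no overlapping exons. It was at 158, 177 and 165 CPM in 2D, 282, 327 and 316 CPM at day 7, and 172, 239 and 212 CPM at day 14. The lowest day 7 sample was above the highest day 14 sample, and the day 14 and 2D samples overlapped. IRF5 rose 1.85-fold at day 7 (log2 fold change 0.89, SE 0.148, adjusted p = 0.000515), a call that held in all 16 alternatives (0.73 to 0.92). Between day 7 and day 14 it fell 1.49-fold (log2 fold change -0.57, SE 0.148, adjusted p = 0.013). That fall lost its call when only the 6 samples of the comparison were fitted, or without 3D_7d replicate 2 or 3 (adjusted p up to 0.0628). At day 14 the level was 0.32 above 2D on the log2 scale and did not pass (95% interval 0 to 0.63, adjusted p = 0.113), but it passed without 3D_14d replicate 1 (0.44, adjusted p = 0.0117).

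IRF1, the activator of antigen presentation and interferon gamma responses, was higher in scaffold culture at day 14. The gene lies at chr5:132481609-132490773 on the minus strand. Its level was 78.4, 77.6 and 92.4 CPM in 2D, 109, 104 and 95.4 CPM at day 7 and 133, 132 and 111 CPM at day 14. The groups did not overlap, and their means were in the order 2D, day 7 and day 14. IRF1 was 1.51-fold higher at day 14 than in 2D (log2 fold change 0.6, SE 0.139, adjusted p = 0.00508). This call was lost in 1 of 16 alternatives, with no filter on expression (adjusted p = 0.0514). At day 7 the log2 fold change was 0.31 (SE 0.138) and did not pass (adjusted p = 0.084), and neither did 0.29 from day 7 to day 14 (adjusted p = 0.138). The day 7 value passed in 2 of the 16 alternatives. Exons of C5orf56, on the other strand, cover 15.4% of the exonic bases of IRF1 and its level moved too, from 24.8 CPM in 2D to 15.8 and 51.4 CPM. Its part in the IRF1 counts was not tested.

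IRF2, which competes with IRF1 for its sites, varied little. The gene is at chr4:184387729-184474550 on the minus strand, with no overlapping exons. It was at 113, 117 and 111 CPM in 2D, 121, 121 and 130 CPM at day 7 and 111, 140 and 144 CPM at day 14. The day 7 samples lay just above those in 2D, and the day 14 samples overlapped both groups. The log2 fold change was 0.13 (95% interval -0.17 to 0.42) at day 7 and 0.22 (adjusted p = 0.233) at day 14, neither of which passed. Without 3D_14d replicate 1, the day 14 value was 0.33 and passed (adjusted p = 0.0285). Per kilobase, the ratio of IRF1 to IRF2 was 0.438 ± 0.0548, 0.498 ± 0.0516 and 0.58 ± 0.129 in the 3 groups (SD, n = 3), and these overlapped.

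IRF2BP2, the IRF2 corepressor, was lowest at day 7 and highest at day 14. The gene lies at chr1:234604269-234609525 on the minus strand. Its level was 44.8, 40.8 and 40.8 CPM in 2D, 31.8, 34.6 and 33.6 CPM at day 7, and 69.7, 50.6 and 61.8 CPM at day 14. The groups did not overlap. IRF2BP2 rose 1.82-fold from day 7 to day 14 (log2 fold change 0.86, SE 0.152, adjusted p = 0.00185), in all 16 alternatives (0.77 to 0.98). Against 2D it was 1.44-fold higher at day 14 (0.53, SE 0.151, adjusted p = 0.0163). The latter was lost in 4 alternatives, namely total counts alone, no filter, and without 2D replicate 2 or 3 (adjusted p up to 0.145). At day 7 it was 0.34 lower than in 2D on the log2 scale without passing (95% interval -0.66 to -0.01, adjusted p = 0.0875), and 4 alternatives called it lower, including scaling by total counts alone. Its relatives IRF2BP1 and IRF2BPL were also tested. IRF2BP1 was at 12.3 to 15.5, 7.13 to 12.3 and 13.9 to 21.2 CPM and rose from day 7 to day 14 (0.89, adjusted p = 0.0163). IRF2BPL was higher at day 14 than in 2D (0.7, adjusted p = 0.0393), and VGLL4, whose protein is an IRF2BP2 partner, was called in no comparison.

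IRF8, a factor of B cell and myeloid identity, kept a high level. The gene lies at chr16:85899162-85922606 on the plus strand with no overlapping exons. It was at 622, 650 and 610 CPM in 2D, 692, 729 and 765 CPM at day 7, and 490, 975 and 684 CPM at day 14. The day 7 samples lay above those in 2D, and the lowest and the highest of all 9 samples were both in the day 14 group. The log2 fold change was 0.22 (95% interval -0.22 to 0.65, adjusted p = 0.408) at day 7 and 0.19 (-0.24 to 0.63, adjusted p = 0.484) at day 14. Neither passed, though without 3D_14d replicate 1 the day 14 value was 0.41 and did (adjusted p = 0.0382). IRF4, the related factor, was at 350, 387 and 421 CPM in 2D, 642, 853 and 930 CPM at day 7 and 301, 409 and 470 CPM at day 14. The ratio of IRF4 to IRF8, per kilobase, was 0.444 ± 0.0477 in 2D, 0.796 ± 0.112 on day 7 and 0.414 ± 0.0995 on day 14 (SD, n = 3). The day 7 ratios lay above all others (exact two-sided permutation p = 0.1 against each other group, the smallest possible). Monocyte markers, which accompany IRF8 in myeloid cells, were near 0 as given above.

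IRF9, the DNA-binding subunit of ISGF3, was the least abundant of the 8 by its counts. It was at 7.52, 7.18 and 9.44 CPM in 2D, 5.35, 5.62 and 5.84 CPM at day 7, and 4.11, 6.66 and 10.8 CPM at day 14. The day 7 samples were below those in 2D, and the day 14 group overlapped both. The log2 fold change was -0.52 (95% interval -1.17 to 0.13, adjusted p = 0.178) at day 7 and -0.16 (-0.81 to 0.48, adjusted p = 0.7) at day 14. Of the 16 alternatives, 1 called IRF9 lower at day 7, the fit of only the 6 samples of the comparison (adjusted p = 0.0271). How the counting treated reads in shared bases was not tested, so these counts may cover little of the gene. Of the exonic bases of IRF9 (chr14:24161053-24166565, plus strand), 87.8% are shared with AL136295.5 on the same strand, which itself had 0.131 to 0.198 CPM per group. Divided by the 240 bases that no other gene shares, a choice made after seeing the data, the level was 33.5 ± 5.09, 23.3 ± 1.02 and 29.9 ± 14 CPM per kilobase in the 3 groups (SD, n = 3). The place of IRF9 among the other factors can therefore not be read from this table.

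Per kilobase of exon (RPKM), the order of the factors differed between the groups. IRF8 was the most abundant of the IRF family in all 6 samples of 2D and day 7, and IRF7 in all 3 at day 14. The ratio of IRF7 to IRF8 at day 14 ranged from 1.02 in replicate 2 to 2.37 in replicate 1. At day 7, IRF4 was above IRF7 in replicates 2 and 3, and IRF7 was above IRF4 in replicate 1 and in all other samples. Mean IRF8 was 164, 190 and 187 RPKM in 2D, day 7 and day 14. Mean IRF7 was 135, 132 and 281 RPKM. In the 3 groups IRF7 made up 25.9 ± 1.56%, 19.5 ± 5.41% and 39.1 ± 6.53% of the summed RPKM of the 7 members and IRF4 (SD, n = 3). Of the other members, IRF5 followed at 49.7, 91.9 and 61.8 RPKM and IRF2 at 50.3, 55 and 58.5 RPKM, neighbours whose order differed between samples in 2D and at day 14. IRF1 had 22, 27.3 and 33.3 RPKM and IRF3 22, 23.9 and 26.5 RPKM, and in 2D their order also differed between samples. IRF2BP2, with 9.04, 7.15 and 13 RPKM, was below these. Summed over the IRF family the level was 519 ± 9.64, 675 ± 4.58 and 725 ± 63.6 RPKM.

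**Figure D3:**
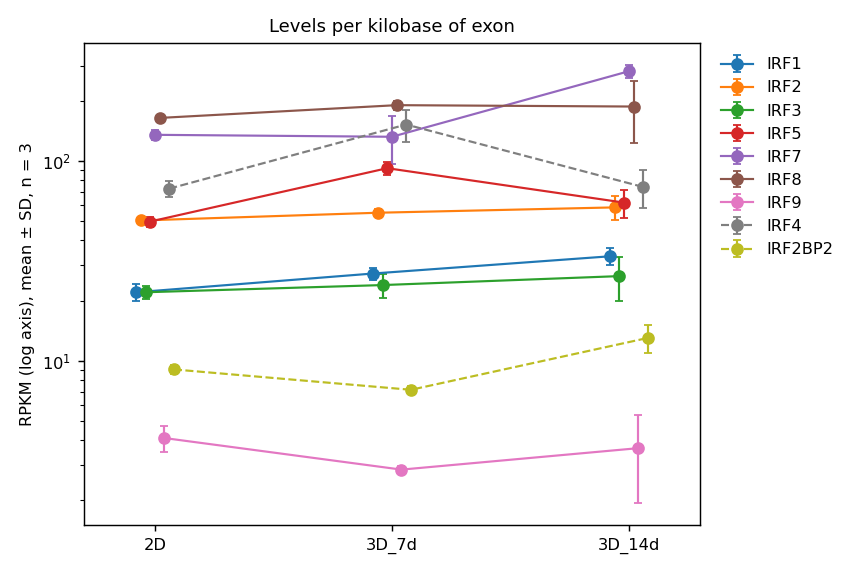
Mean RPKM (log axis) with SD of the 8 genes and IRF4 in the 3 groups, n = 3 samples each; dashed lines are IRF4 and IRF2BP2. IRF7 crosses above IRF8 at day 14 (281 against 187 RPKM), and the low place of IRF9 may rest on the few bases it does not share.

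Genes of the pathway around the factors were then described by lists. The counts of each list stand beside the shares of all genes tested that were higher and lower. These were 22.2% and 21.2% at day 7, 19.0% and 17.2% at day 14, and 14.5% and 13.6% from day 7 to day 14. Of 21 interferon genes, IFNA2 and IFNG passed the filter. IFNA2 was at 2, 1.71 and 2.62 CPM in 2D, 1.51, 1.39 and 0.837 CPM at day 7 and 5.21, 6.22 and 5 CPM at day 14, and all day 14 samples were above all others. It was higher at day 14 than in 2D (log2 fold change 1.38, adjusted p = 0.00479), like IRF7, but it belongs to a family of near-identical genes and its counts are uncertain. IFNB1 had 0 counts in 7 samples, 4 in 3D_7d replicate 1 and 12 in 3D_14d replicate 1. IFNG was called in no comparison.

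Among 23 tested sensors and adaptors upstream of IRF3, IRF5 and IRF7, 8 rose and 1 fell at day 7, and 7 rose and 4 fell at day 14. TLR7, an endosomal RNA receptor that signals to IRF5 and IRF7, was higher at both times (log2 fold change 1.86, adjusted p = 3.58e-05, and 2.03, adjusted p = 3.11e-05). CXorf21, or TASL, the adaptor that recruits IRF5, was at 36.4 to 43.8 CPM in 2D, 77.6 to 92.3 CPM at day 7 and 54.2 to 61 CPM at day 14. It rose at day 7 (1.09, adjusted p = 9.01e-05) and fell from day 7 to day 14 (-0.56, adjusted p = 0.0108), as IRF5 did. SLC15A4, the transporter that holds TASL, rose throughout (0.72 at day 7, adjusted p = 0.00141; 1.46 at day 14, adjusted p = 2.13e-05). ZBP1, a nucleic acid sensor, was higher at both times (1.42 and 1.82, adjusted p = 0.000265 and 7.94e-05). CGAS, the DNA sensor upstream of IRF3, was lower at day 14 (-0.79, adjusted p = 0.00221). TBK1, a kinase of IRF3 and IRF7, was called in no comparison. From day 7 to day 14, 1 rose and 5 fell, among them MAVS (-0.76, adjusted p = 0.0063) and CHUK (-0.87, adjusted p = 0.00987). Both had risen at day 7 (MAVS 0.67, adjusted p = 0.00625; CHUK 1.85, adjusted p = 4.63e-05), and CHUK was still above 2D at day 14 (0.98, adjusted p = 0.00348). The median log2 fold change of the list was 0.16, 0.25 and 0.06 in the 3 comparisons.

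Of the 11 receptors, kinases and STATs that act with IRF9, 4 rose and 3 fell at day 7, 3 rose and 3 fell at day 14, and 1 rose and 1 fell between them, with medians of 0.35, 0.16 and 0.02. STAT2, an ISGF3 subunit, was called in no comparison, like IRF9. JAK1 rose (1.44, adjusted p = 6.02e-05, and 1.07, adjusted p = 0.00057). IFNLR1, a chain of the type III interferon receptor, rose as well (2.34, adjusted p = 0.000927, and 2.15, adjusted p = 0.0021), from 0.934 to 2.74 CPM in 2D to 7.3 to 13.6 CPM at day 7 and 4.89 to 12.1 CPM at day 14. IFNAR1, a chain of the type I interferon receptor, was lower at both times (-0.72, adjusted p = 0.00231, and -0.68, adjusted p = 0.00415), and so was IFNGR2 (-1.35, adjusted p = 8.59e-05, and -0.58, adjusted p = 0.0176).

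Of 38 tested ISGF3 target genes, 8 rose and 5 fell at day 7, 23 rose and 1 fell at day 14, and 18 rose and 0 fell from day 7 to day 14, with medians of -0.09, 0.78 and 0.59. At day 7 the share that rose (21.1%) was near that of all genes tested (22.2%), and the share that fell was 13.2% against 21.2%. At day 14, 60.5% rose and 2.63% fell, against 19.0% and 17.2%. From day 7 to day 14, ADAR was lower at an unadjusted p under 0.05, and DESeq2 called 0 lower. Their summed level was 6690, 6520 and 6260 CPM in 2D, 8810, 6490 and 5650 CPM at day 7 and 14100, 10900 and 11100 CPM at day 14. As with IRF7, the day 14 samples were above all others and 3D_7d replicate 1 was the highest of its group. The day 7 falls numbered 9 with total counts alone, 8 with DESeq2 and 12 with only the 6 samples of the comparison. Without 3D_7d replicate 1, 5 rose and 14 fell at day 7 (median -0.33), and without 3D_7d replicate 3 the rises from day 7 to day 14 numbered 11. At day 14 the antiviral genes IFIT1 (2.26, adjusted p = 0.000427), BST2 (1.51, adjusted p = 0.000221) and MX1 (1.13, adjusted p = 0.000456) were higher than in 2D. IFIT1 and MX1 were also higher at day 7 (1.22, adjusted p = 0.0114, and 0.96, adjusted p = 0.000914). IFITM3, which blocks viral entry, was lower at day 7 (-0.77, adjusted p = 0.0117) and higher at day 14 (0.82, adjusted p = 0.00982).

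**Figure D4:**
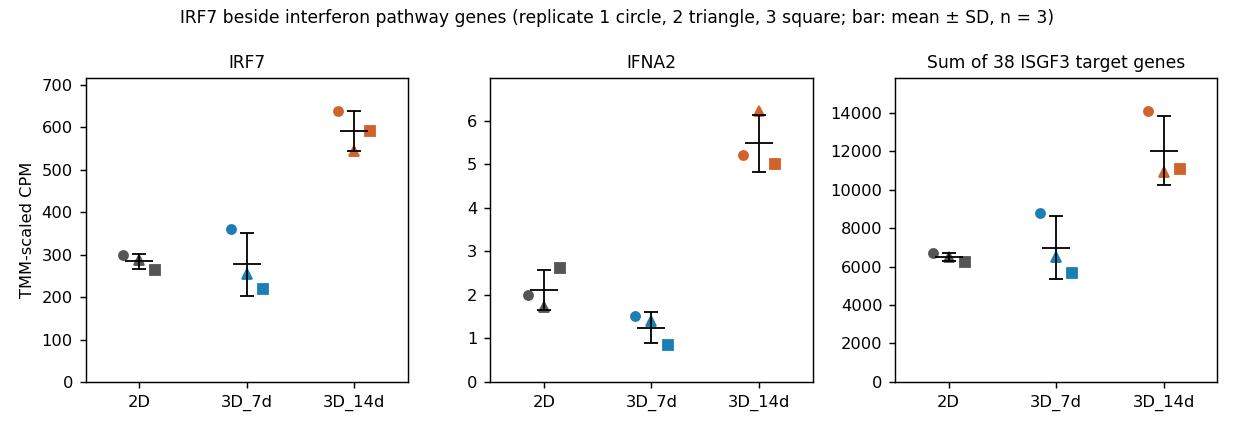
TMM-scaled CPM of IRF7, IFNA2 and the sum of 38 ISGF3 target genes in each sample, with mean and SD (n = 3), linear axes from 0. IRF7, IFNA2 and the summed targets are highest in the 3 day 14 samples, and 3D_7d replicate 1 is the highest of its group for each.

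Among 26 target genes of IRF1 in antigen presentation and the GBP family, 5 rose and 1 fell at day 7, 11 rose and 1 fell at day 14, and 8 rose and 2 fell from day 7 to day 14, with medians of 0.13, 0.54 and 0.02. The day 14 rises numbered 7 with total counts alone, 5 with no filter or without 2D replicate 2, and 3 without 2D replicate 3. Without 2D replicate 1 the day 7 rises numbered 3. TAPBP, a peptide loading factor, was higher at both times (1.35, adjusted p = 0.000109, and 1.07, adjusted p = 0.000694). CASP1, the inflammasome protease, was higher at day 14 (1.07, adjusted p = 0.00124). HLA-B was higher at day 14 (0.69, adjusted p = 0.00473). CXCL10, a chemokine that IRF1 can induce, was low throughout (0 to 1.76 CPM) and was lower at day 14 (-2.56, adjusted p = 0.0222), against the direction of IRF1.

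Of 16 inhibitors of this signalling, 6 rose and 2 fell at day 7, 7 rose and 2 fell at day 14, and 2 rose and 1 fell between them, with medians of 0.45, 0.36 and 0.02. SOCS1, which blocks JAK kinases, was higher at day 14 (0.73, adjusted p = 0.0018), and OTUD5, a deubiquitinase, likewise (0.89, adjusted p = 0.000405). TRIM21, a ubiquitin ligase of IRFs, was higher at both times (0.75, adjusted p = 0.00135, and 0.79, adjusted p = 0.00135). The 2 that fell at both times were SOCS3 (-1.17, adjusted p = 0.0259, and -1.18, adjusted p = 0.0296) and PTPN2 (-0.52, adjusted p = 0.00396, and -0.36, adjusted p = 0.0333). Among 12 tested B cell partners of IRF8 and IRF4, 5 rose and 3 fell at day 7, 4 rose and 1 fell at day 14, and 2 rose and 2 fell between them, with medians of 0.15, 0.38 and 0.14. SPIB, an ETS partner, was higher at both times (1.53, adjusted p = 2.51e-05, and 1.49, adjusted p = 4.28e-05). SPI1, which encodes PU.1, rose from day 7 to day 14 (0.97, adjusted p = 0.00115). BATF3, an AP-1 partner, was at 12 to 18.4 CPM in 2D, 4.4 to 4.95 CPM at day 7 and 12.1 to 15.1 CPM at day 14, a time course opposite to that of IRF4.

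**Figure D5:**
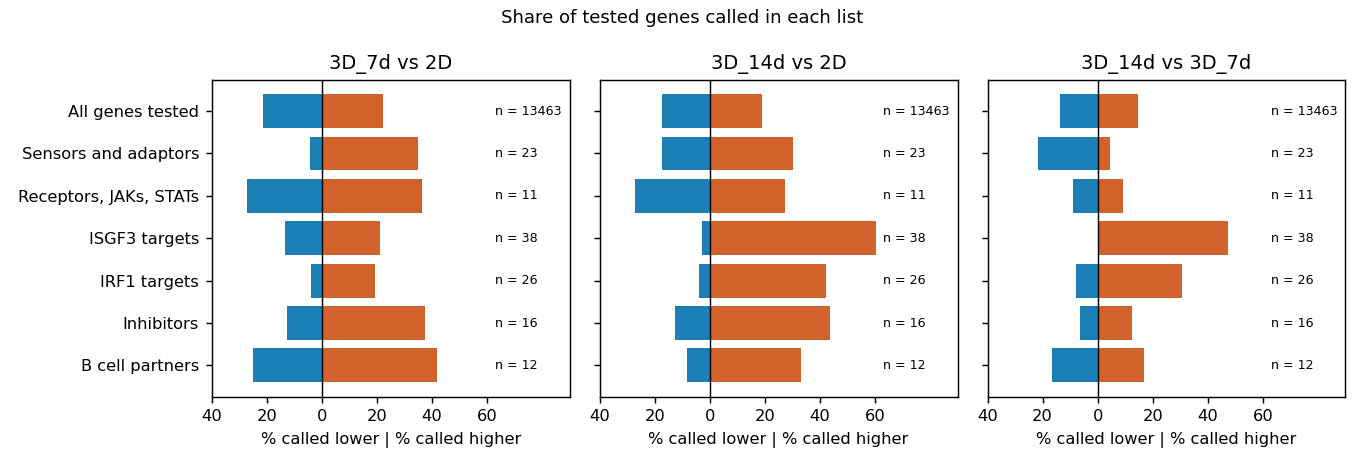
Share of the tested genes in each list called higher (orange, to the right) or lower (blue, to the left) in the 3 comparisons, beside all genes tested. ISGF3 target genes at day 14 stand at 60.5% higher, where all genes tested are at 19.0%; lists hold 11 to 38 tested genes.

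For each called member the tested genes with the most similar profile over the 9 samples were found by the root mean square (RMS) difference of centred log2 CPM. IRF1 was closest to HLA-W, PSMB8-AS1 and STK17A (0.0952, 0.103 and 0.103), against its own range of 0.78 on the same scale. IRF5 was closest to IARS2 and KBTBD4 (0.0558 and 0.0573, own range 1.05). The nearest genes to IRF7 were ZNF580, MGAT4B and CRYM (0.14, 0.145 and 0.148). These differences were the largest, but so was the range of IRF7 itself, 1.55. IRF2BP2 was closest to B2M, GABARAPL2 and TMEM60 (0.0747, 0.0882 and 0.0932, own range 1.13). These are the best of 13463 genes, over samples that share 3 conditions, and are given as a description.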

How the data were processed

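RNA from 9 samples of MEC1 cells (3 in 2D, 3 at day 7 and 3 at day 14 in bioprinted scaffolds) was made into SMART-Seq v4 libraries and sequenced as single reads by the authors. The deposited values are raw counts per gene: according to the methods and the submitters' processing notes, reads were trimmed with Trimmomatic 0.39, aligned to GRCh38 with a GENCODE annotation by STAR 2.5.3a and counted by featureCounts 1.6.4. The strand setting and the handling of multi-mapped reads were not given in the sources used here. Raw counts were not normalized by the authors in this table, and totals of 54662799 to 85968686 per sample set the counting error given with the results.

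From these counts, 13463 genes that exceeded a CPM of 1 in 3 or more samples were kept. TMM scaling and the quasi-likelihood test of edgeR 4.0.16 in R 4.3.3 were applied to all 9 samples in 1 model with a mean per group. P-values were adjusted by Benjamini-Hochberg over all genes tested in each comparison, with a threshold of 0.05. Standard errors and 95% intervals came from the same fit. CPM and RPKM use TMM-scaled totals, and RPKM the exonic length in the table. Log2 CPM had a prior count of 2. Ratios of factors were compared by exact permutation tests. Gene positions come from the table, and promoter sequences from RefSeq (GRCh38.p14). The members and lists were chosen with earlier results of these data known. The genes named were all members, their relatives, in each list the up to 4 called genes with the smallest p per comparison, and the 3 genes closest to each called member by RMS difference. Other list genes, such as TBK1, IFNAR1 and CXCL10, were named after their values were seen. Alternatives were DESeq2 1.42.0 (size factors and Wald test), total counts alone, no filter, edgeR's filterByExpr, the 6 samples of a comparison only, a replicate block, and leaving out each sample. OAS1 was not analysed here, and a few other list genes and 1 of the genes closest to IRF5 are not reported by name.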

Additional observations from a re-analysis of the deposited data

Results flagged for a closer look

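For 3 members the change against 2D differed between day 7 and day 14, tested as the difference between both time points with edgeR. Since both changes share the 2D samples, this is the comparison of day 14 with day 7 given above and not a separate test. For IRF7 the day 14 change minus the day 7 change was 1.09 on the log2 scale (adjusted p = 0.00118). For IRF2BP2 it was 0.86 (adjusted p = 0.00185), and for IRF5 it was -0.57 (adjusted p = 0.013). The direction of each held in the 3 samples of day 14 against those of day 7, which did not overlap for any of these genes.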

How the results depend on the processing

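Of the 7 calls of members, 4 held in all 16 alternatives (IRF5 at day 7, IRF7 at day 14 against either group, IRF2BP2 from day 7 to day 14), IRF1 at day 14 in 15, IRF5 from day 7 to day 14 in 13 and IRF2BP2 at day 14 against 2D in 12. No call changed direction. With total counts alone, 1 member was called lower at day 7, and the median of all genes moved to -0.16 at day 7 and -0.18 at day 14. Under that scaling, 2156 genes were higher and 3580 lower at day 7, against 2985 and 2853 as reported. At day 14 against 2D, 1603 were higher and 3248 lower, against 2557 and 2318 as reported. With no filter on expression, 1 member was called higher at day 14 against 2D. With only the 6 samples of the comparison, 2 members were higher and 2 lower at day 7, and 0 fell from day 7 to day 14. Over all genes, that fit called 3856 higher and 3944 lower at day 7, against 2985 and 2853 as reported. Leaving out single samples gave 1 to 2 members higher and 0 to 1 lower at day 7. At day 14 it gave 2 to 6 higher, with 6 without 3D_14d replicate 1, where 2862 of all genes were higher. From day 7 to day 14, 0 to 1 fell. The cause of these differences was not tested, except that the fits named hold fewer samples or more genes. Over all genes, the number higher at day 14 than in 2D was 2557 as reported and 1603 to 2891 over the alternatives, lowest with total counts alone and 1617 and 1653 without 2D replicate 3 or 2. The number that fell from day 7 to day 14 was 1834 as reported and 1088 to 2157 over the alternatives, with 1088 and 1094 without 3D_7d replicate 3 or 2 and 1124 with only the 6 samples. The number that rose from day 7 to day 14 was 1951 as reported and 1188 to 2372 over the alternatives. It was lowest without 3D_7d replicate 2 or 3 (1188 and 1325) and with only the 6 samples (1329). Same-numbered samples deviated with correlations of -0.1 to 0.185, and other samples of different groups with -0.135 to 0.0807. Between 2D and day 14, the same-numbered values (0.0931 to 0.185) lay above all others (-0.135 to 0.0399). With day 7 samples the same-numbered values were -0.1 to -0.00522. No source states a pairing, and the main fit did not take the numbers as pairs. The replicate block changed no member count (1 higher at day 7, 3 at day 14, 2 higher and 1 lower between them) and gave 2939, 2458 and 1818 higher genes in the 3 comparisons, against 2985, 2557 and 1951.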
